A study of Mus musculus with 8 samples.

Results

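The 10 genes described here make, break down, sense and carry retinoic acid: the synthesis genes Aldh1a1, Aldh1a2 and Aldh1a3, the breakdown genes Cyp26a1 and Cyp26b1, the receptor genes Rara, Rarb and Rarg, and the binding protein genes Crabp1 and Crabp2. They were chosen by name for their role, with earlier results of these data known, and are 10 of the 46078 Ensembl gene IDs counted in each library. RNA-sequencing libraries of 4 kinds of male mouse cells on a C57BL/6 background were analysed, in biological duplicate. tcESCs are an embryonic stem cell (ESC) line with a tesco-cfp reporter, in which a testis enhancer of Sox9 drives a cyan fluorescent protein (CFP), and have the genotype XY;tesco-cfp. tc;Sf1ESCs (XY;tesco-cfp;Sf1) are 1 clone of that line that expresses an Sf1 transgene (the gene Nr5a1) constitutively, so what is particular to the clone and what the transgene does cannot be told apart. Both ESC lines were kept in N2B27 medium with LIF and 2 inhibitors, CHIR99021 among them. SCLCs, labelled as testicular somatic cell-like cells and called Sertoli cell-like cells in the study, are the CFP-positive cells sorted at day 12 of a culture that started from tc;Sf1ESCs, so they carry the same reporter and transgene. That culture began in a medium with CHIR99021, a Wnt activator, and TTNPB, a synthetic agonist of retinoic acid receptors, and went on in a medium that the study's text gives as CHIR99021, BMP7 and FGF9. A supplementary list of media has TTNPB in that second medium too and no FGF9, so the sources differ on whether the agonist was present up to the sort. Its B27 supplement lacked vitamin A. tod-PGCLCs are primordial germ cell-like cells with the genotype XY;Prdm1-gfp, sorted at day 6 from testicular organoids in which they were cultured with tc;Sf1 cells. These cells entered the organoids as epiblast-like cells, and the study gives the organoid medium as containing CHIR99021 and no other supplement. The tod-PGCLCs come from another ESC line, which was not analysed here, so the line and the condition cannot be told apart in any comparison with them.

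Retinoic acid is made from vitamin A (retinol) in 2 steps, a reversible oxidation to retinal by enzymes such as RDH10 and an irreversible oxidation to retinoic acid by the ALDH1A enzymes. It enters the nucleus and binds the receptors RARα, RARβ and RARγ, which sit on DNA as heterodimers with retinoid X receptors (RXRs) at direct repeats of a short motif. The CYP26 enzymes oxidise retinoic acid to forms that are removed, and the CRABP proteins bind it in the cytoplasm. In the fetal gonad, retinoic acid is known for the induction of Stra8 and entry into meiosis in germ cells of the ovary, and CYP26B1, made by Sertoli cells, is known to keep it low in the fetal testis.

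Cyp26a1 and Rarb are textbook direct targets of retinoic acid receptors, and the promoters of both are shown because they were the members whose start regions held a receptor motif. RefSeq windows (GRCm38.p6) of 300 bases, from 250 before to 50 after a start, were found for 8 of the 10 genes. The windows were searched on both strands for 2 copies of a hexamer (AGGTCA or AGTTCA, or GGGTCA or GGTTCA) in the same direction, 5 bases apart (the DR5 arrangement), 2 bases apart (DR2) or 1 base apart (DR1). DR5 was in 32 of all 32851 windows (0.0974%), and among the members it was in the windows of Cyp26a1 and Rarb and in none of the other 6. DR2 (0.268% of windows) and DR1 (0.222%) were in none of the 8. Of 42 other genes with a window, from the pathway, target and meiosis lists described below, none had DR5 or DR2 and 1 (Bco1) had DR1. The Cyp26a1 element lies at chr19:37697776-37697792, upstream of the gene, with its centre 24 bases before the RefSeq start. The Rarb element lies at chr14:16575513-16575529, with its centre 45 bases before the RefSeq start. In GENCODE M21 it lies in the 5′ untranslated part of the first exon of 2 of the 7 Rarb transcripts, which start further upstream, while no Cyp26a1 exon covers the other element. Both stretches below are written 5′ to 3′ on the minus strand with the hexamers in capitals, and cover chr19:37697770-37697798 and chr14:16575507-16575535.
Cyp26a1 element: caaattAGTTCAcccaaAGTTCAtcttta
Rarb element: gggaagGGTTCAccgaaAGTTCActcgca
The longer stretch before Cyp26a1 is given on the plus strand (chr19:37697558-37697797, 240 bases), where the hexamers read in the other direction, and ends 1 base before the first transcript start of the GENCODE M21 annotation.
Cyp26a1 upstream: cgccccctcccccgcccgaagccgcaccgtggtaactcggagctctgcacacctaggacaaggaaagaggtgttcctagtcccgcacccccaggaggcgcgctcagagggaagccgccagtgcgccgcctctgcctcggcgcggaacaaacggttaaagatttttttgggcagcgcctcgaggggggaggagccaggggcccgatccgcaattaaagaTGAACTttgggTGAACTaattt
A match is a description of the sequence, and binding was not measured.

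The libraries held 25411033 to 30680191 counts on genes, and 3 counts are 0.0975 to 0.118 CPM (counts scaled to the TMM-adjusted size of the library), which covers counting error only. Nr5a1 had 1 and 0 counts in tcESCs, 52 and 30 in tc;Sf1ESCs, 341 and 535 in SCLCs and 6 and 5 in tod-PGCLCs, so it was highest in the groups labelled with the transgene. Of 14 Sertoli cell markers 7 were above 1 CPM in both SCLC libraries and 7 in both tod-PGCLC libraries, against 4 in both libraries of each ESC line. Their sum was 613 and 643 CPM in SCLCs, 136 and 166 CPM in tod-PGCLCs and 19.4 to 25.9 CPM in the ESC libraries. Dmrt1, which is also a germ cell gene, made up most of the tod-PGCLC sum (94.9 and 116 CPM). Wt1, a transcription factor of the early gonad, was lower in SCLCs (2.35 and 0.826 CPM) than in tod-PGCLCs (11.5 and 10.5 CPM). Gata4 made up most of the SCLC sum (432 and 451 CPM), Amh was at 0.392 and 0.790 CPM in SCLCs and 0.585 to 0.878 CPM in ESCs, and Fshr was at 0 in SCLCs. Clu (67.7 and 77.1 CPM), Vnn1 (42.8 and 64.6), Inha (8.23 and 9.70) and Sox9 (8.08 and 4.67) were higher in SCLCs than in every ESC library. Their highest ESC values were 4.84, 1.98, 0.389 and 0.272 CPM. Ptgds was at 0.235 and 1.11 CPM in SCLCs, and Dhh, Fgf9 and Cst9 were under 1 CPM there. All 10 markers of visceral endoderm, an extraembryonic tissue, were detected in both SCLC libraries and 9 were above 1 CPM, with sums of 1814 and 3322 CPM against 7.80 to 14.4 CPM in ESCs and 26.0 and 34.1 CPM in tod-PGCLCs, and the part of such cells in the SCLC results was not tested. The 8 pluripotency markers summed to 843 and 577 CPM in SCLCs, 4118 to 4737 CPM in ESCs and 3084 and 2860 CPM in tod-PGCLCs. The 9 germ cell markers summed to 1044 and 1041 CPM in tod-PGCLCs against 434 to 592 CPM elsewhere. In such bulk samples, fewer cells of a type and less RNA per cell cannot be told apart.

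Of the 10 retinoic acid genes, 1 was called between the ESC lines and 6 to 8 in each of the other comparisons. Tests were edgeR's quasi-likelihood tests, adjusted by Benjamini-Hochberg over all genes, and a call needed a change of more than 2-fold and an adjusted p below 0.05. All 10 genes passed the filter of a mean count above 10 over the libraries of each fit, though Aldh1a1, Cyp26a1 and Rarb did so only through the groups where they were high, since 7 of the 10 had a mean count above 10 over the 4 ESC libraries. When this filter was dropped and all detected genes were fitted, those 3 were again called higher in SCLCs than in both ESC lines, with log2 fold changes relative to tcESCs of 7.58 for Aldh1a1, 8.17 for Cyp26a1 and 5.57 for Rarb. That fit used the same libraries, so it is not independent support, and the Aldh1a1 value is set against 1 and 0 counts in tcESCs. Between tc;Sf1ESCs and tcESCs 1 gene was called, lower in tc;Sf1ESCs, where 11.7% of all tested genes were called, 6.04% higher and 5.63% lower. SCLCs differed from tcESCs in 7 called genes, with 4 higher and 3 lower in SCLCs, against 42.7% of all genes, 24.3% higher and 18.3% lower. They differed from tc;Sf1ESCs in 6, with 4 higher and 2 lower, against 42.2% of all genes, 24.1% higher and 18.1% lower. Calls in tod-PGCLCs relative to tcESCs numbered 6, with 5 higher and 1 lower, against 29.4% of all genes, 18.1% higher and 11.2% lower. SCLCs and tod-PGCLCs differed in 8 called genes, of which 5 were higher and 3 lower in SCLCs, against 38.0% of all genes, 19.5% higher and 18.5% lower. The median log2 fold change of the 10 genes was -0.79, 0.10, 0.51, 1.35 and 0.51 in these comparisons, in the same order, beside medians of 0.00077, 0.046, 0.016, 0.034 and -0.012 over all genes. These comparisons share libraries, the tcESCs in 3 of them and the SCLCs in 3, so their values stand side by side as descriptions of the same libraries.

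**Figure D1:**
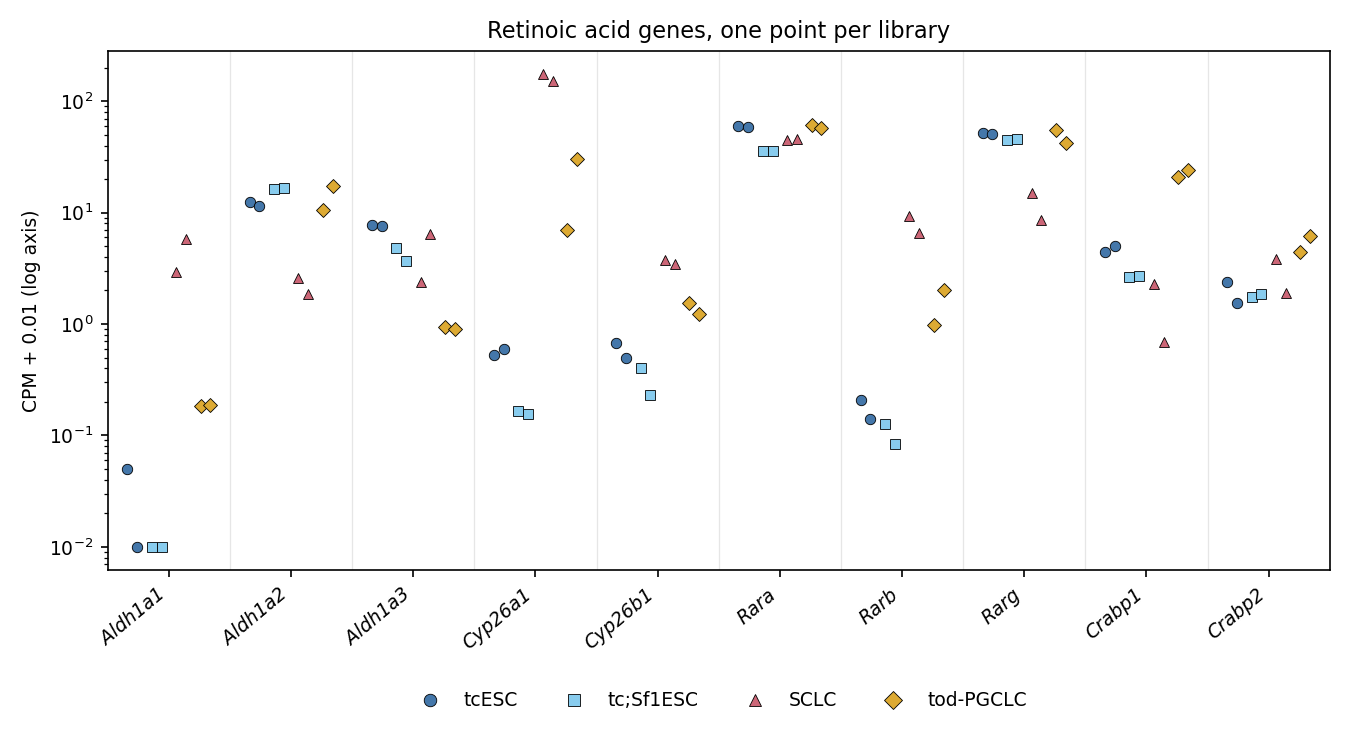
CPM plus 0.01 on a log axis of the 10 retinoic acid genes (horizontal axis), with 1 point per library and 2 libraries in each of the 4 groups. Cyp26a1 runs from 0.146 CPM in a tc;Sf1ESC library to 174 CPM in an SCLC library, while Rara stays between 35.5 and 60.6 CPM; points at the bottom of the Aldh1a1 column are libraries with 0 counts.

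Among the synthesis genes, Aldh1a2 was the main one in ESCs and tod-PGCLCs, and its level was lower in SCLCs, where Aldh1a1 appeared. Aldh1a2 (ENSMUSG00000013584, chr9:71215789-71296243) encodes the enzyme that makes most of the retinoic acid of the early embryo. It had 12.5 and 11.6 CPM in tcESCs, 16.4 and 16.5 CPM in tc;Sf1ESCs, 2.59 and 1.87 CPM in SCLCs and 10.5 and 17.5 CPM in tod-PGCLCs. Both SCLC libraries were below all the others. The log2 fold change was -2.43 ± 0.18 (SE) between SCLCs and tcESCs (adjusted p = 1.86e-05), -2.88 ± 0.18 between SCLCs and tc;Sf1ESCs and -2.65 ± 0.27 between SCLCs and tod-PGCLCs. Between tc;Sf1ESCs and tcESCs it was 0.45 ± 0.16 and not called (adjusted p = 0.0657). Between tod-PGCLCs and tcESCs, whose libraries overlapped, it was 0.21 ± 0.23 (adjusted p = 0.446).

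Aldh1a1 (ENSMUSG00000053279, chr19:20492715-20643465), the isoform with wide adult expression that is also a general aldehyde dehydrogenase, was at or near 0 in ESCs. Its counts were 1 and 0 in tcESCs, 0 and 0 in tc;Sf1ESCs, 75 and 160 in SCLCs and 5 and 5 in tod-PGCLCs. Only the SCLC libraries had more than 5 counts, and they differed from each other (2.94 and 5.75 CPM). It was called higher in SCLCs than in tcESCs (adjusted p = 0.000226), with a ratio of summed counts, corrected for library size, of 247 and an exact 95% counting interval of 43.9 to 9806. Aldh1a1 passed the mean-count filter only through the SCLC libraries. Against tc;Sf1ESCs, where no library had a count, it was at least 37.3-fold higher in SCLCs, computed with 3 counts in each tc;Sf1ESC library. Against tod-PGCLCs it was higher in SCLCs by a log2 fold change of 4.60 ± 0.52 (adjusted p = 0.000115). Between tod-PGCLCs and tcESCs the ratio was 9.86 (counting interval 1.40 to 428) and not called (adjusted p = 0.0653). A near-identical neighbour, Aldh1a7, had 0 and 0 counts in tcESCs, 1 and 1 in tc;Sf1ESCs, 5 and 4 in SCLCs and 25 and 26 in tod-PGCLCs, and reads shared between the copies would be missing from both.

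Aldh1a3 (ENSMUSG00000015134, chr7:66390890-66427517), which acts in the developing eye and nose, was the synthesis gene that was lowest in tod-PGCLCs relative to ESCs. It had 7.69 and 7.57 CPM in tcESCs, 4.82 and 3.70 CPM in tc;Sf1ESCs, 2.35 and 6.39 CPM in SCLCs and 0.932 and 0.894 CPM in tod-PGCLCs. The tod-PGCLC libraries lay below all the others, while the SCLC libraries lay on both sides of the tc;Sf1ESC libraries. It fell in tod-PGCLCs relative to tcESCs, with a log2 fold change of -3.06 ± 0.44 (adjusted p = 0.000374), and was higher in SCLCs than in tod-PGCLCs by 2.26 ± 0.45 (adjusted p = 0.00182), a value that was 1.37 without SCLC replicate 2 and still called. Between SCLCs and tcESCs the log2 fold change was -0.79 ± 0.40 and not called, but without SCLC replicate 2 it was -1.69 and called. Against tc;Sf1ESCs it was 0.053 ± 0.41 (adjusted p = 0.915), and without SCLC replicate 2 it was -0.85.

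Per length, on the TPM scale (counts divided by exon length, then scaled to the library), the ALDH1A genes were also divided differently. Aldh1a2 made up 76.8% and 75.7% of their summed TPM in tcESCs, 87.4% and 90.1% in tc;Sf1ESCs and 95.1% and 97.1% in tod-PGCLCs. In SCLCs it made up 50.8% and 24.5%, with Aldh1a1 at 26.5% and 34.5% and Aldh1a3 at 22.7% and 41.0%. The sum itself was 8.20 and 12.3 TPM in SCLCs, against 24.7 to 29.3 TPM in ESCs and 18.6 and 30.4 TPM in tod-PGCLCs. These shares have no test.

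Both breakdown genes were higher in SCLCs than in any other group and next highest in tod-PGCLCs, and the change was larger for Cyp26a1 than for Cyp26b1. Cyp26a1 (ENSMUSG00000024987, chr19:37697798-37701536) encodes the CYP26 enzyme of the early embryo and is itself induced by retinoic acid. Its counts were 13 and 18 in tcESCs, 4 and 4 in tc;Sf1ESCs, 4448 and 4217 in SCLCs and 200 and 847 in tod-PGCLCs. In CPM these were 0.513 and 0.585, 0.155 and 0.146, 174 and 151, and 6.91 and 30.3. No group overlapped another, in the order tc;Sf1ESCs, tcESCs, tod-PGCLCs and SCLCs, although the tod-PGCLC libraries were far from each other. It rose in SCLCs by a log2 fold change of 8.20 ± 0.14 relative to tcESCs (293-fold, adjusted p = 5.94e-08) and 10.04 ± 0.17 relative to tc;Sf1ESCs (adjusted p = 6.92e-08). Cyp26a1 passed the mean-count filter only through the groups where it was high. It rose in tod-PGCLCs relative to tcESCs by 5.06 ± 0.78 (33.3-fold, adjusted p = 0.000551), a value that was 3.64 without tod-PGCLC replicate 2 and 5.77 without tod-PGCLC replicate 1. SCLCs exceeded tod-PGCLCs by 3.13 ± 0.49 (8.78-fold, adjusted p = 0.00046), and by 4.55 and 2.42 without those libraries in turn. In tc;Sf1ESCs it was lower than in tcESCs, with a log2 fold change of -1.84 ± 0.37 (adjusted p = 0.00895), a call that rested on few counts and was not made without tcESC replicate 2 (adjusted p = 0.0595), without tc;Sf1ESC replicate 2 (adjusted p = 0.0567) or in a fit of all 8 libraries (adjusted p = 0.491). The SCLC culture was given TTNPB at its start and, by one of the study's accounts, afterwards as well. Libraries of cells without it were not analysed here, so the part of the agonist in these levels was not tested.

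Cyp26b1 (ENSMUSG00000063415, chr6:84571414-84593908) encodes the CYP26 enzyme of the fetal testis, and the study itself lists it as a Sertoli cell gene from these samples, so its direction in SCLCs is not independent of that choice. It had 0.671 and 0.488 CPM in tcESCs, 0.389 and 0.220 CPM in tc;Sf1ESCs, 3.72 and 3.48 CPM in SCLCs and 1.52 and 1.22 CPM in tod-PGCLCs. The SCLC libraries were the highest and the tod-PGCLC libraries the next highest, with no overlap. It rose in SCLCs by a log2 fold change of 2.65 ± 0.31 relative to tcESCs (adjusted p = 0.000182) and 3.56 ± 0.34 relative to tc;Sf1ESCs (adjusted p = 6.78e-05). SCLCs also exceeded tod-PGCLCs by 1.39 ± 0.28 (adjusted p = 0.00173). In tod-PGCLCs it was higher than in tcESCs by 1.25 ± 0.33 (adjusted p = 0.00955), a call not made without tcESC replicate 2 (0.98) or without tod-PGCLC replicate 1 (1.08, adjusted p = 0.0536). Chromosome 6, where the gene lies, had a median log2 fold change over its tested genes of -0.31 between tc;Sf1ESCs and tcESCs, -0.30 between SCLCs and tcESCs and -0.29 between tod-PGCLCs and tcESCs.

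Cyp26a1 made up most of the CYP26 transcripts in SCLCs and tod-PGCLCs. Per length, it was 99.2% of the summed TPM of Cyp26a1 and Cyp26b1 in each SCLC library and 92.5% and 98.5% in tod-PGCLCs, while tcESCs had 67.4% and 76.4% and tc;Sf1ESCs had 51.9% and 64.3%. Cyp26c1, the third CYP26 gene, which is not one of the 10, had 3.10 and 3.20 TPM in tcESCs, 0.943 and 0.587 TPM in tc;Sf1ESCs, 10.6 and 7.88 TPM in SCLCs and 2.12 and 2.27 TPM in tod-PGCLCs, more than Cyp26b1 in every library. With it in the sum, Cyp26a1 was 96.1% and 96.5% in SCLCs and 80.6% and 94.9% in tod-PGCLCs, while in ESCs it was 18.8% to 26.1% and Cyp26c1 was the main one, at 59.3% to 69.4%. The summed TPM of Cyp26a1 and Cyp26b1 was 0.0532 and 0.0572 times that of the synthesis genes in tcESCs and 0.0182 and 0.0142 times in tc;Sf1ESCs. In SCLCs it was 39.4 and 22.8 times and in tod-PGCLCs 0.775 and 1.95 times. With Cyp26c1 the ratio was 0.169 and 0.187 in tcESCs, 0.0504 and 0.0349 in tc;Sf1ESCs, 40.7 and 23.5 in SCLCs and 0.889 and 2.02 in tod-PGCLCs. With or without it, transcripts for breakdown outnumbered those for synthesis in both SCLC libraries and in 1 of the 2 tod-PGCLC libraries. These ratios have no test and say nothing of enzyme activity or of the amount of retinoic acid, neither of which was measured.

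**Figure D2:**
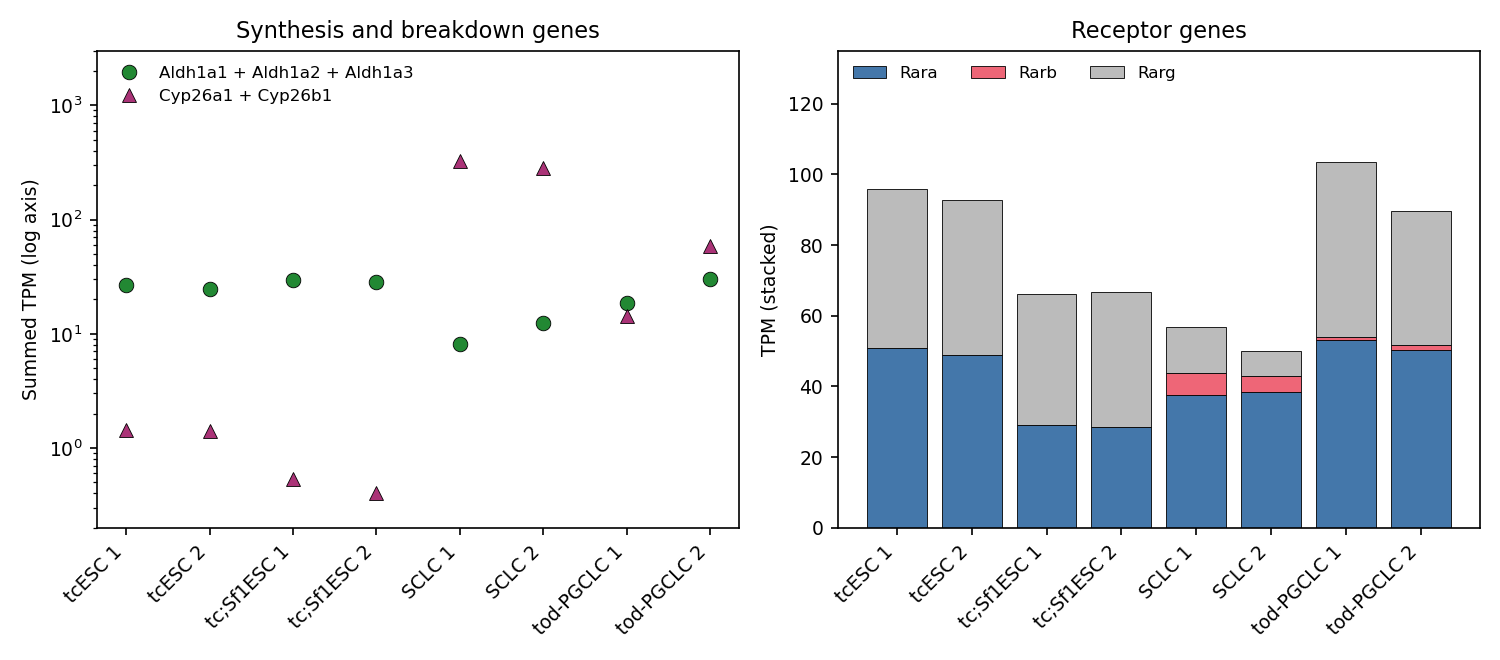
On the left, summed TPM on a log axis of the 3 synthesis genes (circles) and of the 2 breakdown genes (triangles) in each of the 8 libraries; on the right, TPM of the 3 receptor genes stacked from 0 for the same libraries. The breakdown sum is 323 and 281 TPM in SCLCs, above the synthesis sum of 8.20 and 12.3 TPM, and Rarb is visible as a share of the receptors in SCLCs at 11.4% and 9.09%.

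The receptor genes differed in both level and makeup, with Rarb higher and Rarg lower in SCLCs while Rara kept within a narrow range. Rarb (ENSMUSG00000017491, chr14:16430839-16819156) is the receptor that is itself induced by retinoic acid. Its counts were 5 and 4 in tcESCs, 3 and 2 in tc;Sf1ESCs, 238 and 183 in SCLCs and 28 and 56 in tod-PGCLCs. It was thus near the limit of detection in ESCs, highest in both SCLC libraries and between the others in tod-PGCLCs. It rose in SCLCs relative to tcESCs by a log2 fold change of 5.59 ± 0.36 (48.2-fold, adjusted p = 9.61e-06). Rarb passed the mean-count filter only through the groups where it was high. Relative to tc;Sf1ESCs, with at most 3 counts in a library, the ratio was 83.7 with a counting interval of 35.6 to 259 (adjusted p = 8.47e-06). It also rose in tod-PGCLCs relative to tcESCs, by 3.17 ± 0.53 (8.98-fold, adjusted p = 0.000858), and SCLCs exceeded tod-PGCLCs by 2.42 ± 0.34 (adjusted p = 0.000238). Without tod-PGCLC replicate 2, the library with more Rarb, these values were 2.56 and 3.03, both called. In the annotation Rarb shares 1793 exonic bases with Top2b on the other strand, which had 1946 to 3546 counts in each library, and whether the counting used strand is not given in the sources used here.

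Rarg (ENSMUSG00000001288, chr15:102234938-102257517), the receptor of early mesoderm and skin, moved the other way in SCLCs. It had 51.4 and 50.9 CPM in tcESCs, 44.5 and 46.3 CPM in tc;Sf1ESCs, 15.0 and 8.51 CPM in SCLCs and 54.9 and 42.5 CPM in tod-PGCLCs. Both SCLC libraries were below all 6 others, which lay close together. It fell in SCLCs with a log2 fold change of -2.12 ± 0.22 relative to tcESCs (adjusted p = 0.000108), -1.95 ± 0.22 relative to tc;Sf1ESCs (adjusted p = 0.000169) and -2.06 ± 0.23 relative to tod-PGCLCs (adjusted p = 4.85e-05). Between tod-PGCLCs and tcESCs the log2 fold change was -0.070 ± 0.21 (adjusted p = 0.786).

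Rara (ENSMUSG00000037992, chr11:98927818-98974942), the most widely expressed of the receptors, was not called in any comparison. It had 59.8 and 58.3 CPM in tcESCs, 36.0 and 35.5 CPM in tc;Sf1ESCs, 44.8 and 45.8 CPM in SCLCs and 60.6 and 57.4 CPM in tod-PGCLCs. Replicates were within 4 CPM of each other, and 4 differences under 2-fold had adjusted p-values under 0.05. The log2 fold change was -0.73 ± 0.07 between tc;Sf1ESCs and tcESCs (adjusted p = 0.000482), -0.38 ± 0.07 between SCLCs and tcESCs (adjusted p = 0.00162) and 0.35 ± 0.07 between SCLCs and tc;Sf1ESCs (adjusted p = 0.00266). In tod-PGCLCs relative to tcESCs it was -0.00109 ± 0.07, on a chromosome 11 whose tested genes had a median of 0.52 in that comparison. Between SCLCs and tod-PGCLCs it was -0.38 ± 0.07, where the chromosome's median was -0.53.

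As a share of the TPM of the 3 receptor genes, Rara was 53.1% and 52.7% in tcESCs, 44.1% and 42.8% in tc;Sf1ESCs, 66.0% and 76.4% in SCLCs and 51.5% and 55.9% in tod-PGCLCs. Rarg was 46.8% and 47.2%, 55.8% and 57.1%, 22.6% and 14.5%, and 47.8% and 42.4% in the same order. Rarb stayed at 0.0731% to 0.145% in ESCs and was 11.4% and 9.09% in SCLCs and 0.681% and 1.62% in tod-PGCLCs. Even where it was highest, Rarb was the smallest of the 3 in every library. Of the RXR partners, Rxra and Rxrb were called in no comparison, and their log2 fold changes between SCLCs and tcESCs were 0.45 ± 0.12 (adjusted p = 0.0127) and 0.39 ± 0.09 (adjusted p = 0.00577). Rxrg had at most 7 counts in any library and was not tested.

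The binding protein genes separated tod-PGCLCs from the other groups. Crabp1 (ENSMUSG00000032291, chr9:54764748-54773110) encodes a cytoplasmic protein that is linked to retinoic acid breakdown. It had 4.46 and 5.04 CPM in tcESCs, 2.64 and 2.67 CPM in tc;Sf1ESCs, 2.27 and 0.683 CPM in SCLCs and 20.8 and 24.1 CPM in tod-PGCLCs. The tod-PGCLC libraries were above all the others and the SCLC libraries below all the others. It rose in tod-PGCLCs relative to tcESCs by a log2 fold change of 2.24 ± 0.33 (4.72-fold, adjusted p = 0.000433). SCLCs were lower than tod-PGCLCs, at -3.94 ± 0.38 (adjusted p = 2.23e-05), and lower than tcESCs, at -1.69 ± 0.45 (adjusted p = 0.0113). The SCLC libraries were uneven, and these values were -5.02 and -2.78 without SCLC replicate 1 and -3.29 and -1.06 without SCLC replicate 2, all called. The call relative to tcESCs was lost without tcESC replicate 1 (-1.78, adjusted p = 0.0538) and without tcESC replicate 2 (-1.61, adjusted p = 0.0772). Relative to tc;Sf1ESCs the value was -0.85 ± 0.47 and not called (adjusted p = 0.137), but it was -1.94 and called without SCLC replicate 1, and -0.22 without SCLC replicate 2.

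Crabp2 (ENSMUSG00000004885, chr3:87948666-87953376), which encodes the protein that carries retinoic acid to its receptors, differed less. It had 2.37 and 1.53 CPM in tcESCs, 1.75 and 1.87 CPM in tc;Sf1ESCs, 3.84 and 1.90 CPM in SCLCs and 4.42 and 6.22 CPM in tod-PGCLCs. Only the tod-PGCLC libraries were above all the others. It was higher in tod-PGCLCs than in tcESCs by a log2 fold change of 1.46 ± 0.36 (2.75-fold, adjusted p = 0.00716), a call that was lost without tcESC replicate 2 (adjusted p = 0.0824) and without tod-PGCLC replicate 2 (adjusted p = 0.0511). In SCLCs it was not called relative to tcESCs (0.57 ± 0.38, adjusted p = 0.214) or tc;Sf1ESCs (0.67 ± 0.38, adjusted p = 0.157), though it was called higher than in both without SCLC replicate 2 (1.0 and 1.09). Between SCLCs and tod-PGCLCs the value of -0.89 ± 0.35 missed the fold limit (adjusted p = 0.0465) and passed it without SCLC replicate 1 (-1.47) and without tod-PGCLC replicate 1 (-1.13, adjusted p = 0.0482), while it was -0.46 without SCLC replicate 2 and -0.63 without tod-PGCLC replicate 2. Per length, Crabp1 made up 88.6% and 86.4% of the CRABP transcripts in tod-PGCLCs and 49.4% and 37.1% in SCLCs.

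**Figure D3:**
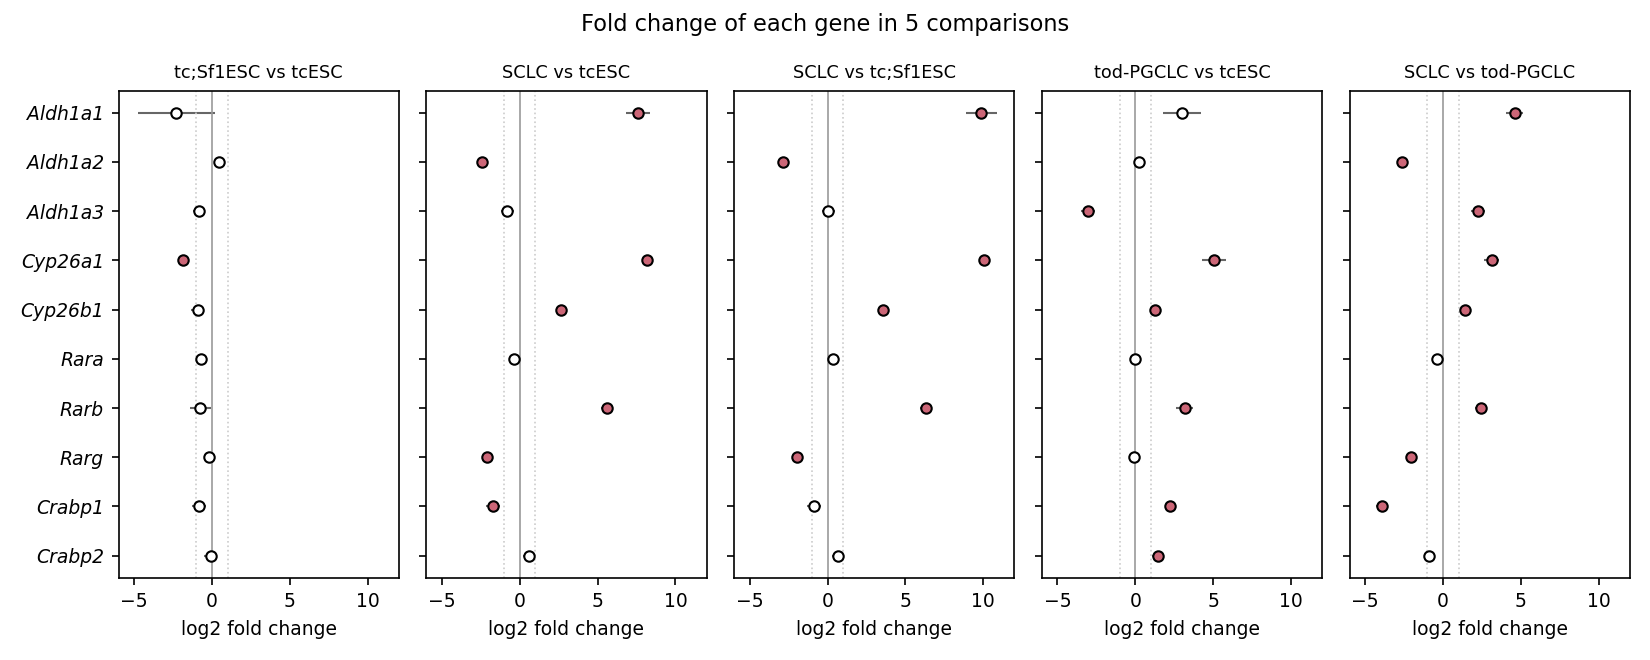
Log2 fold change (horizontal axis) with its standard error (bars) of each of the 10 genes in the 5 comparisons, from edgeR; filled points were called, dotted lines mark a 2-fold change. Between the ESC lines Cyp26a1 alone is filled, at -1.84, while in both comparisons of SCLCs with ESCs Aldh1a1, Cyp26a1, Cyp26b1 and Rarb lie to the right and Aldh1a2 and Rarg to the left.

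Other genes of the pathway, 28 that act in vitamin A uptake, storage and oxidation or with the receptors, were counted beside these. Between tc;Sf1ESCs and tcESCs 4 of the 24 tested (16.7%) were called, 2 higher and 2 lower, against 11.7% of all genes. In SCLCs 13 of 24 (54.2%) were called relative to tcESCs, 11 higher and 2 lower, against 42.7%, and 16 of 24 (66.7%) relative to tc;Sf1ESCs, 13 higher and 3 lower, against 42.2%. In tod-PGCLCs 9 of 23 (39.1%) were called relative to tcESCs, 7 higher and 2 lower, against 29.4%. Between SCLCs and tod-PGCLCs 12 of 23 (52.2%) were called, 10 higher and 2 lower, against 38.0%. With so few genes, several of these shares lie within a few genes of those over all genes, and no test compared them. The median log2 fold changes were -0.12, 0.74, 1.28, 0.20 and 0.59. Dhrs9, Stra6 and Bco2 passed the mean-count filter only through the groups where they were high.

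Stra6, the membrane receptor that takes up retinol from its carrier, had 2 and 2 counts in tcESCs, 2 and 0 in tc;Sf1ESCs, 1337 and 1259 in SCLCs and 98 and 96 in tod-PGCLCs. The ratio to tcESCs was 683 in SCLCs (counting interval 266 to 2508, adjusted p = 5.86e-07) and 47.8 in tod-PGCLCs (18.4 to 177, adjusted p = 6.3e-06). Rbp4, the retinol carrier of blood, which liver and visceral endoderm secrete, had 0.907 and 0.845 CPM in tcESCs, 0.233 and 0.256 CPM in tc;Sf1ESCs, 68.2 and 110 CPM in SCLCs and 1.66 and 2.36 CPM in tod-PGCLCs. It was higher in SCLCs than in tcESCs by a log2 fold change of 6.67 ± 0.30 (adjusted p = 1.87e-06), and SCLC replicate 2, with the higher Rbp4, was also the library with the higher sum of visceral endoderm markers. Dhrs3, which reduces retinal back to retinol and is a known retinoic acid target, was between 1.17 and 1.93 CPM in ESCs and tod-PGCLCs and at 32.5 and 26.4 CPM in SCLCs. The log2 fold change was 4.08 ± 0.19 relative to tcESCs (adjusted p = 2.03e-06) and 4.58 ± 0.20 relative to tod-PGCLCs. Bco2, a carotenoid-cleaving enzyme, had 1 and 4 counts in tcESCs and 63 and 121 in SCLCs (log2 fold change 5.20 ± 0.54), and 10 and 19 in tod-PGCLCs (2.47 ± 0.71). The call in tod-PGCLCs was lost without tcESC replicate 1 (1.89, adjusted p = 0.0941) and without tod-PGCLC replicate 2 (1.92, adjusted p = 0.0953), and without tcESC replicate 2 the values of Bco2 were 6.27 in SCLCs and 3.51 in tod-PGCLCs.

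Lower in SCLCs than in tcESCs were Dhrs4, another retinal reductase (-1.72 ± 0.18), and Ncor1, a corepressor of the receptors, at the fold limit (-1.0 ± 0.08), which it missed without SCLC replicate 2 (-0.97) and without tcESC replicate 1 (-0.92). Bco1, which cleaves carotene to retinal, and Adh1, a retinol dehydrogenase, were higher in tc;Sf1ESCs than in tcESCs, by 2.58 ± 0.34 and 2.11 ± 0.17. Both were lower in SCLCs than in tc;Sf1ESCs, at -3.17 ± 0.36 and -2.80 ± 0.18, and lower in tod-PGCLCs than in tcESCs, at -3.37 ± 0.55 and -1.96 ± 0.24. Without SCLC replicate 2, Bco1 was at -4.06 between SCLCs and tc;Sf1ESCs. The other genes called lower in tc;Sf1ESCs were Cyp26c1 (-1.97 ± 0.35) and Fabp5, another retinoic acid binding protein (-1.72 ± 0.32). The call of Cyp26c1 was lost without tcESC replicate 2 (-1.94, adjusted p = 0.0501) and without tc;Sf1ESC replicate 2 (-1.67, adjusted p = 0.0566). That of Fabp5 was lost without tcESC replicate 1 (-1.67, adjusted p = 0.0656) and without tcESC replicate 2 (-1.78, adjusted p = 0.0575), and its value was -2.40 without tc;Sf1ESC replicate 2. Cyp26c1 was higher in SCLCs than in tcESCs (1.56 ± 0.26, adjusted p = 0.0013), tc;Sf1ESCs (3.54 ± 0.32, adjusted p = 5.23e-05) and tod-PGCLCs (2.13 ± 0.27, adjusted p = 0.000125), and between tod-PGCLCs and tcESCs it was not called (-0.58 ± 0.29, adjusted p = 0.116). Ncoa1, a coactivator of the receptors, was lower in SCLCs than in tod-PGCLCs (-1.15 ± 0.09).

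A list of 20 genes known to respond to retinoic acid in embryos or stem cells, some of which (such as Dhrs3, Nrip1 and Stra6) are also among the 28 above, was higher in SCLCs for most members. Of the 17 tested, 16 (94.1%) were called between SCLCs and tcESCs, 15 higher and 1 lower, where 24.3% of all genes were higher and 18.3% lower. Relative to tc;Sf1ESCs 15 (88.2%) were called, 14 higher and 1 lower, where 24.1% of all genes were higher and 18.1% lower. In tod-PGCLCs 12 of 18 (66.7%) were called relative to tcESCs, 11 higher and 1 lower, against 29.4% of all genes. SCLCs had 10 of 18 higher than tod-PGCLCs and 3 lower (72.2% called against 38.0%), and tc;Sf1ESCs had 3 of 17 higher than tcESCs and 2 lower (29.4% called against 11.7%). Its median log2 fold changes were 0.36, 2.69, 2.28, 1.66 and 1.18, in the order used for the medians above. In ESC libraries Stra6 had 2, 2, 2 and 0 counts, Hoxa3 6, 0, 2 and 5, and Hoxa5 5, 5, 5 and 10. These 3 passed the mean-count filter only through the groups where they were high. Hoxb1, at 0 in ESCs, did so in the fit of all 8 libraries. The list was also chosen with earlier results of these data known, so its shares depend in part on the filter and on that choice.

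Meis1, a homeobox partner of HOX proteins, had 12 and 13 counts in tcESCs, 16 and 40 in tc;Sf1ESCs, 499 and 391 in SCLCs and 173 and 168 in tod-PGCLCs. It rose by a log2 fold change of 5.22 ± 0.40 in SCLCs and 3.73 ± 0.38 in tod-PGCLCs, both relative to tcESCs. Hoxb4 was higher in SCLCs than in tod-PGCLCs by 2.50 ± 0.24. Cdx1, a caudal homeobox gene that responds to both retinoic acid and Wnt signals, was the gene of the list that fell in SCLCs relative to both ESC lines. It had 26.8 and 27.4 CPM in tcESCs, 42.2 and 39.9 CPM in tc;Sf1ESCs, 1.33 and 0.970 CPM in SCLCs and 2.83 and 3.90 CPM in tod-PGCLCs, with log2 fold changes relative to tcESCs of -4.55 ± 0.15 and -3.01 ± 0.17. Between the ESC lines Meis2 and Bhlhe40 were higher in tc;Sf1ESCs (1.92 ± 0.14 and 1.14 ± 0.14), and Tgm2, a transglutaminase, was lower (-2.29 ± 0.48), a call that was lost without any 1 of the 4 ESC libraries (-2.47 to -2.12, adjusted p from 0.0518 to 0.0753).

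**Figure D4:**
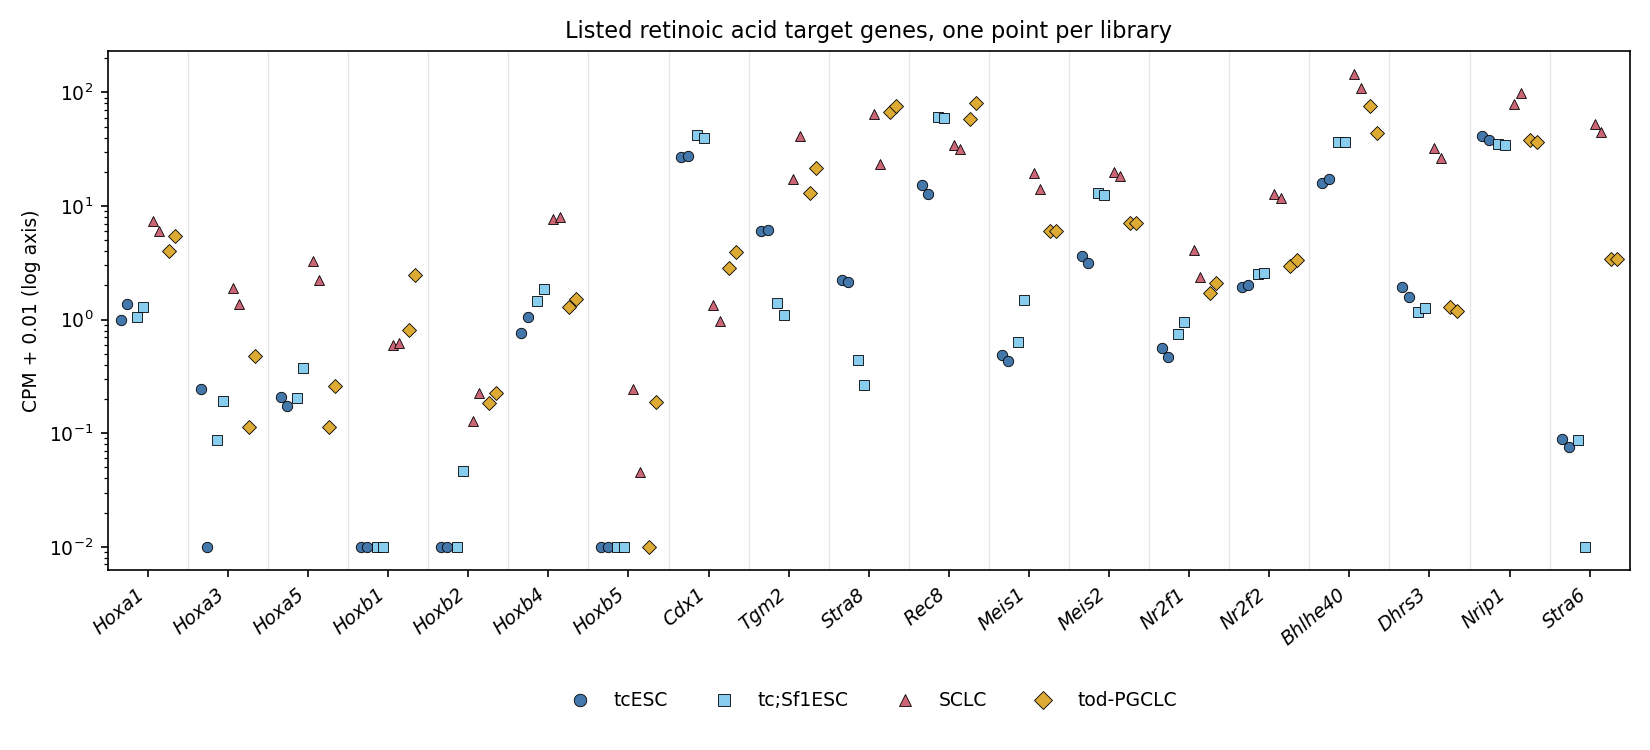
CPM plus 0.01 on a log axis of 19 of the 20 listed retinoic acid target genes (horizontal axis), with 1 point per library and 2 libraries in each of the 4 groups. The SCLC points lie above the tcESC points for most genes, while for Cdx1 they lie at 1.33 and 0.970 CPM, below the 26.8 and 27.4 CPM of tcESCs; points at the bottom are libraries with 0 counts.

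Stra8, which retinoic acid induces in germ cells before meiosis, was high in both differentiated groups. It had 2.21 and 2.11 CPM in tcESCs, 0.428 and 0.256 CPM in tc;Sf1ESCs, 64.4 and 23.5 CPM in SCLCs and 67.9 and 76.6 CPM in tod-PGCLCs. The SCLC libraries were far from each other, and both were below the tod-PGCLC libraries. It rose by a log2 fold change of 4.35 ± 0.50 in SCLCs (adjusted p = 0.000175) and 5.06 ± 0.47 in tod-PGCLCs (adjusted p = 2.99e-05) relative to tcESCs. Relative to tc;Sf1ESCs it rose in SCLCs by 7.0 ± 0.65 (adjusted p = 5.67e-05). The difference between SCLCs and tod-PGCLCs was -0.72 ± 0.36 and not called (adjusted p = 0.1). In tc;Sf1ESCs it was lower than in tcESCs, at -2.65 ± 0.81 (adjusted p = 0.0439), a call that was lost without any 1 of the 4 ESC libraries (-3.05 to -2.32, adjusted p from 0.111 to 0.171). Without SCLC replicate 1 the values in SCLCs were 3.46 relative to tcESCs and 6.11 relative to tc;Sf1ESCs. SCLC replicate 1, with the higher Stra8, also had the higher sums of pluripotency and germ cell markers (843 against 577 CPM and 592 against 434 CPM), and the part of such cells was not tested.

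Rec8, a meiotic cohesin that is also a retinoic acid target, had 15.3 and 12.8 CPM in tcESCs, 61.3 and 59.5 CPM in tc;Sf1ESCs, 34.5 and 32.0 CPM in SCLCs and 58.5 and 81.1 CPM in tod-PGCLCs. Relative to tcESCs it rose in tc;Sf1ESCs by a log2 fold change of 2.10 ± 0.11, in SCLCs by 1.25 ± 0.11 and in tod-PGCLCs by 2.31 ± 0.16. Its value between SCLCs and tc;Sf1ESCs was -0.86 ± 0.10, under the fold limit, and SCLCs were lower than tod-PGCLCs, at -1.07 ± 0.15, a value of -0.82 and under the fold limit without tod-PGCLC replicate 2. Stra8 and Rec8 thus lay on opposite sides of 0 between the ESC lines.

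Of 14 genes of meiotic entry and prophase, a list that holds Stra8 and Rec8, 7 were higher and 1 lower of 12 tested in tod-PGCLCs relative to tcESCs (66.7% called, against 29.4% of all genes). Spo11 was tested only in the fit of all 8 libraries, whose filter it passed through tod-PGCLCs (9 and 49 counts). In SCLCs 4 were higher and 2 lower of 11 relative to tcESCs (54.5% against 42.7%), and 8 higher and 1 lower relative to tc;Sf1ESCs (81.8% against 42.2%). Between the ESC lines 1 of 11 was higher and 5 were lower in tc;Sf1ESCs (54.5% against 11.7%). SCLCs had 1 of 12 higher than tod-PGCLCs and 5 lower (6 of 12 called, against 38.0%). Smc1b, a meiotic cohesin, and Sycp2, of the synaptonemal complex, were lower in tc;Sf1ESCs than in tcESCs (-3.41 ± 0.43 and -2.31 ± 0.33) and higher in SCLCs than in tc;Sf1ESCs (4.04 ± 0.43 and 3.12 ± 0.32). Syce1, also of that complex, and Msh5, a recombination gene, were higher in SCLCs than in tcESCs (2.24 ± 0.12 and 1.99 ± 0.19). Msh5 was higher in tod-PGCLCs than in tcESCs as well (1.67 ± 0.19), while Hormad1, a chromosome axis gene, was lower than in tcESCs in both SCLCs (-2.03 ± 0.37) and tod-PGCLCs (-2.19 ± 0.37). The recombinase gene Dmc1 was lower in SCLCs than in tcESCs (-1.29 ± 0.30) and than in tod-PGCLCs (-1.74 ± 0.27), and so was its partner Mnd1 in the latter comparison (-1.59 ± 0.28). The call of Dmc1 relative to tcESCs was lost without SCLC replicate 2 (-0.87) and without tcESC replicate 1 (-1.14, adjusted p = 0.0572). Like Stra8, several of these genes were higher in SCLC replicate 1 than in SCLC replicate 2, with 57.9 and 24.4 CPM of Smc1b, 16.5 and 6.18 CPM of Hormad1 and 13.4 and 6.29 CPM of Mnd1. Without SCLC replicate 1, Smc1b was at 3.30 relative to tc;Sf1ESCs, Hormad1 at -2.89 relative to tcESCs and Mnd1 at -2.23 relative to tod-PGCLCs, all called.

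Of 4 further germ cell genes, 3 were tested. Dazl and Ddx4, which encode RNA-binding proteins of germ cells, and Dmrt1, a regulator of germ and Sertoli cells, were all lower in tc;Sf1ESCs than in tcESCs (-2.20 ± 0.38, -2.27 ± 0.15 and -1.5 ± 0.43). In tod-PGCLCs Dmrt1 and Ddx4 were higher than in tcESCs (2.92 ± 0.37 and 1.06 ± 0.12). In SCLCs Dazl was lower than in tcESCs (-2.06 ± 0.37) and than in tod-PGCLCs (-1.71 ± 0.40), where Dmrt1 was lower too (-2.05 ± 0.35), and Ddx4 and Dmrt1 were higher than in tc;Sf1ESCs (3.24 ± 0.15 and 2.38 ± 0.43). SCLC replicate 1 again had more Dazl (63.0 against 23.9 CPM) and Dmrt1 (37.1 against 13.9 CPM) than SCLC replicate 2. Without it, Dazl was at -2.91 relative to tcESCs and -2.56 relative to tod-PGCLCs, and Dmrt1 at 1.52 relative to tc;Sf1ESCs and -2.91 relative to tod-PGCLCs. Between the ESC lines the call of Dmrt1 was lost without any 1 of the 4 libraries (-1.58 to -1.42, adjusted p from 0.13 to 0.179) and that of Dazl without tcESC replicate 2 (-2.12, adjusted p = 0.0577). Ddx4 in tod-PGCLCs missed the fold limit without tcESC replicate 2 (0.99). Nanos2, a male germ cell gene that retinoic acid is known to oppose, had at most 3 counts in any library and was not tested.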

How the data were processed

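Poly-A RNA was sequenced in 8 libraries, 2 for each of tcESCs, tc;Sf1ESCs, SCLCs and tod-PGCLCs. The authors trimmed the reads with Trim Galore, aligned them to GRCm38 with STAR (2.4.0 in the submitters' processing notes), counted reads on genes with HTSeq and deposited raw counts without normalization. The annotation and the strand setting of the counting are not given in the sources used here. The duplicates are described as biological, with nothing to say that they differ in more than the culture, so p-values measure only the spread between these samples.

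Of 46078 gene IDs, 45229 were named with GENCODE M21. Tests used edgeR 4.0.16 in R 4.3.3 (TMM, quasi-likelihood test, Benjamini-Hochberg) on genes with a mean count above 10. The tcESC, tc;Sf1ESC and SCLC libraries were fitted together (16481 genes), and all 8 libraries (16707 genes) for tod-PGCLCs. CPM use TMM-adjusted sizes and compare a gene between groups. TPM use union exon lengths and compare genes. In simulated counts for SCLCs against tcESCs (16307 genes), 94.2% of 190 changed genes were recovered with 2 false calls, and for tod-PGCLCs against tcESCs (16554 genes), 92.4% of 197 with 4. The simulation gave every gene and group the same spread and changed few genes, while 42.7% of genes were called between SCLCs and tcESCs in the data. These figures therefore check the code and do not give error rates for these libraries.

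The members and gene lists were chosen with earlier results of these data known. All 10 members are named throughout, and of the other lists up to 3 called genes per direction with the largest change, a mean of at least 1 CPM and no overlap, plus Stra8 and Rec8. The Sertoli cell markers other than Nr5a1, and Aldh1a7, Rxra, Rxrb, Rxrg, Nanos2, Dhrs9, Hoxa3, Hoxa5, Hoxb1 and Spo11, were named after their values were seen. Alternatives were RLE size factors, library totals, other gene filters, DESeq2 1.42.0, the replicate number as a block, a fit of all 8 libraries and each library left out in turn. The values of 1 gene that the rule would name are not reported here.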

Additional observations from a re-analysis of the deposited data

How the results depend on the processing

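Among the single-gene values of the 10 genes under all alternatives, 521 kept their direction and side of the limits, 9 were newly called, 9 were no longer called and 9 changed sign, none of which had been called. Without 1 library in turn, 0 to 1 gene was called between tc;Sf1ESCs and tcESCs, 6 to 9 between SCLCs and tcESCs, 6 to 7 between SCLCs and tc;Sf1ESCs, 4 to 6 between tod-PGCLCs and tcESCs and 8 to 9 between SCLCs and tod-PGCLCs. With all 8 libraries in the fit, 0 were called between the ESC lines (edgeR's adjusted p for Cyp26a1 = 0.491), and DESeq2 called 1. The cause was not tested. Without 1 library in turn, 1119 to 1240 of all genes were called between the ESC lines, against 1923, with 2 other pathway genes in place of 4 without tcESC replicate 2 and 3 target genes in place of 5 without tcESC replicate 1, tcESC replicate 2 or tc;Sf1ESC replicate 2. Values that changed sign were, for Aldh1a3 between SCLCs and tc;Sf1ESCs, between -0.85 (without SCLC replicate 2) and 0.61 as single libraries were left out, with -0.14 without tc;Sf1ESC replicate 2. Between the ESC lines Crabp2 ran from -0.39 to 0.24, with the higher end without tcESC replicate 1. Without that library no ESC library had a count of Aldh1a1, which then had no fold. Between tod-PGCLCs and tcESCs, Rara was 0.072 and Rarg 0.00346 with library totals only. As single libraries were left out, Aldh1a2 ran from -0.20 to 0.55, Rara from -0.064 to 0.046 and Rarg from -0.26 to 0.11. Library totals moved the median of all genes between SCLCs and tod-PGCLCs to -0.15, and Crabp2 was then called lower in SCLCs (-1.03).

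Samples with the same replicate number share only a number, since their deviations from the group means did not go together (correlation across genes of -0.0229, -0.0307, 0.00425, 0.0485 and 0.0737 in the 5 comparisons). With the replicate number as a block, 1, 7, 6, 7 and 8 of the 10 genes were called, against 1, 7, 6, 6 and 8 without it. The gene added was Aldh1a1 between tod-PGCLCs and tcESCs (3.05, adjusted p = 0.0458 by edgeR), which was also called without a filter on the mean count (2.99), and Aldh1a3 between SCLCs and tc;Sf1ESCs was -0.00989.

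Depth limits Aldh1a1, Cyp26a1, Cyp26b1 and Rarb in ESCs, where each library has 18 counts or fewer of each.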
